A study of Mus musculus with 6 samples.

Results

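The 10 genes described here encode regulators of signalling in T cells: 5 RGS proteins (Rgs1, Rgs2, Rgs10, Rgs16 and Rgs19) and 5 dual-specificity phosphatases (Dusp1, Dusp2, Dusp4, Dusp5 and Dusp6). They were taken by name from the 23420 gene rows of the expression table, and each was read in all 6 libraries. The libraries held polyadenylated RNA of induced T (iT) cells, T cells that arose in mice from transplanted progenitors made in culture from C57BL/6 (CD45.2) pluripotent stem cells. These stem cells carried a doxycycline-inducible Runx1-p2a-Hoxa9 cassette in the Rosa26 locus, and doxycycline induced it in culture. For the transplants of this kind that the study describes in its main text, recipients received no doxycycline. Recipients were sublethally irradiated B-NDG mice (CD45.1, Prkdc and Il2rg deficient, 8 to 10 weeks old), which lack T, B and NK cells of their own. At week 5, CD45.2+ Ter119- CD11b- spleen cells were sorted as CD4 single-positive (CD4SP) or CD8 single-positive (CD8SP), 1000 cells a library, with 3 libraries of each population. Cassette, host and treatment were thus shared by both groups, and no T cells from ordinary mice were used in the comparison. The labels do not tie the replicate numbers to mice, so p-values measure the spread between these libraries.

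RGS proteins bind active G protein alpha subunits and speed the hydrolysis of their GTP, which switches off signals from G-protein-coupled receptors such as those for chemokines and sphingosine-1-phosphate. In lymphocytes they tune migration towards, and retention in, lymphoid tissue. Dual-specificity phosphatases of the MAP kinase phosphatase kind remove phosphates from both threonine and tyrosine in the activation loop of ERK, JNK and p38 kinases. Several of them are induced by the very kinases they switch off, including after T cell receptor engagement.

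Transcripts of 7 of the 10 genes were higher in CD4SP than in CD8SP iT cells: Rgs1, Rgs2, Rgs10, Rgs16, Dusp1, Dusp4 and Dusp5. None was called higher in CD8SP cells, by limma with either adjusted or unadjusted p-values under 0.05. Rgs19, Dusp2 and Dusp6 were not called. Levels are given in TPM, a measure of transcript abundance that corrects for gene length and has the same total in each library. Differences were tested with limma on log2(TPM + 1) over all 10476 genes that reached 1 TPM in at least 3 libraries. Calls required a difference of over 2-fold on that scale together with a Benjamini-Hochberg adjusted p under 0.05. By this rule 9.73% of all tested genes were called, 7.92% with the higher level in CD4SP cells and 1.8% with the higher level in CD8SP cells, against which the 7 and 0 of 10 are to be read. With the adjusted p alone, 20.8% of tested genes passed, 17.6% of tested genes with the higher level in CD4SP cells, and the number of the 10 genes was again 7. It was 5 after median-of-ratios rescaling, where 4.67% of tested genes were called in that direction, and 6 after quantile normalization, where 4.24% were. All 10 genes passed the filter on low values, but Dusp4 and Dusp5 did so through the CD4SP libraries, so a difference in that direction was built into their being tested. In bulk libraries of this kind, fewer cells that express a gene and less of its RNA per cell cannot be told apart.

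All genes together lay above 0, with a median log2 fold change of 0.28 in favour of CD4SP cells. Ribosomal protein transcripts (84 genes) took 24.9% to 29.8% of TPM in CD4SP and 33.1% to 37.1% in CD8SP libraries, and since TPM has a fixed total, their part in this shift was not tested. Relative to the median of all genes, the log2 fold changes of the 7 called genes were between 0.86 (Rgs16) and 1.51 (Dusp5), while those of Rgs19, Dusp2 and Dusp6 were -0.25, -0.46 and 0.079. In rank among all tested genes, the fold changes of the 7 stood between the 93.2 (Rgs16) and the 97.6 (Dusp5) percentile. The groups did not overlap for these 7 genes, with all CD4SP libraries above all CD8SP libraries, as they were for 36.6% of tested genes.

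**Figure D1:**
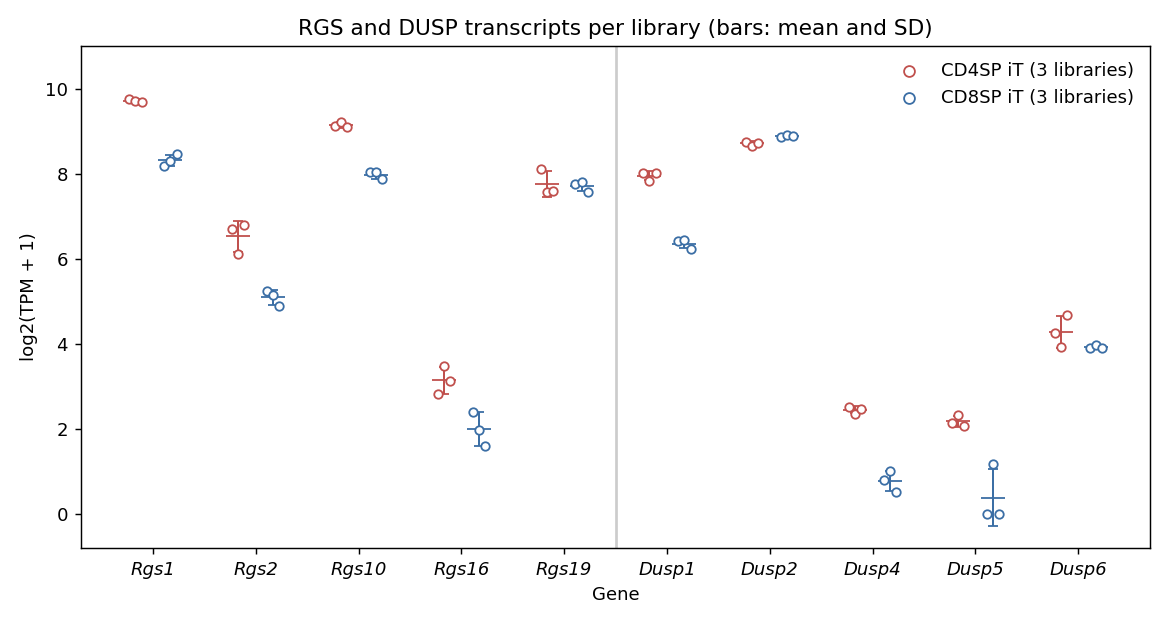
Expression of the 10 genes in each library, as log2(TPM + 1) on the vertical axis and gene on the horizontal axis. Open circles are libraries (CD4SP red, CD8SP blue), and bars give the mean and SD of 3. The red circles lie above the blue ones for 7 genes, below them for Dusp2, and among them for Rgs19 and Dusp6.

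Rgs1 restrains chemokine receptor signals through Gi and Gq proteins and was the most abundant of the 10 genes in CD4SP cells. It lies on the minus strand at chr1:144242296-144249242 (GRCm38, as are all positions here). CD4SP replicates 1 to 3 held 861, 839 and 825 TPM, and CD8SP replicates 1 to 3 held 291, 314 and 349 TPM (the same order is kept below). The lowest CD4SP library was thus well above the highest CD8SP library, and within a population the libraries were close. The mean level was 841 ± 18.3 TPM against 318 ± 29.3 TPM (SD, n = 3 each), a ratio of 2.64. The log2 fold change was 1.40 (limma, SE 0.107, adjusted p = 0.000106), with a 95% interval from 1.16 to 1.65.

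Rgs10, a small RGS protein that acts on Gi alpha subunits, lies at chr7:128373621-128418758 on the minus strand. CD4SP cells had 551, 594 and 547 TPM, while CD8SP cells had 261, 262 and 232 TPM. Both sets of libraries were tight and stood apart. Its log2 fold change was 1.16 (limma, SE 0.105, adjusted p = 0.000257), with mean levels of 564 ± 26.2 TPM against 252 ± 16.98 TPM (SD, n = 3 each). The fold change fell to 0.86 after median-of-ratios rescaling, where the limma adjusted p was 0.00324 and the difference was under 2-fold. Gm15503, a transcript annotated on the same strand, overlaps Rgs10 over 3374 nt and has no value of its own in the data.

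Rgs2 differs from most RGS proteins in acting chiefly on Gq, and it lies at chr1:143999338-144004161 on the minus strand of the chromosome that also holds Rgs1. CD4SP libraries held 102, 67.8 and 109 TPM, and CD8SP libraries held 36.7, 34.7 and 28.5 TPM. CD4SP replicate 2 was the lowest of its group but was still above every CD8SP library. The log2 fold change was 1.43 (limma, SE 0.202, adjusted p = 0.00233), and the ratio of mean levels was 2.80.

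Rgs16 is a regulator of Gi and Gq signals that activated lymphocytes induce, and it lies at chr1:153740349-153745468 on the plus strand. It was expressed at far lower levels than Rgs1, Rgs2 and Rgs10, with CD4SP values of 6.11, 10.1 and 7.79 TPM and CD8SP values of 4.26, 2.97 and 2.05 TPM. The groups did not overlap, but their nearest libraries, at 6.11 and 4.26 TPM, were closer than the highest and lowest library within either group. Its log2 fold change was 1.15 (limma, SE 0.285, adjusted p = 0.0250), the least certain of the 7 calls. The call was lost after median-of-ratios rescaling (0.90, adjusted p = 0.0796), after quantile normalization (0.78, adjusted p = 0.135) and without CD4SP replicate 2, CD4SP replicate 3, CD8SP replicate 2 or CD8SP replicate 3, where values were 0.99, 1.15, 1.14 and 0.95. An annotated antisense transcript, Gm28513, overlaps Rgs16, and since use of strand in the counting is not stated, reads of the pair cannot be told apart.

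Rgs19, also known as GAIP and a regulator of Gi alpha subunits, was the only one of the 5 RGS genes with overlapping groups. It lies at chr2:181688419-181693977 on the minus strand. The CD4SP values were 274, 188 and 191 TPM, and the CD8SP values were 214, 224 and 189 TPM. One CD4SP library, replicate 1, was the highest of the 6, and of the other CD4SP libraries replicate 2 lay just below the lowest CD8SP library and replicate 3 just above it. On the log2 scale the fold change was 0.039, with a 95% interval from -0.34 to 0.42 (limma, adjusted p = 0.883), so that a 2-fold difference in either direction lies outside the interval. Its sign depended on the scaling and on single libraries: it was -0.27 after median-of-ratios rescaling and -0.14 without CD4SP replicate 1.

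Dusp1, a nuclear phosphatase of p38, JNK and ERK and an immediate-early gene, had the smallest adjusted p of the 10 genes. It lies on the minus strand at chr17:26505590-26562128, where 640 nt overlap Ergic1 on the opposite strand, a gene at no more than 17.4 TPM in any library. Annotation also places AC122252.1 (1853 nt) and AC122252.4 (227 nt) there on the same strand, and Gm8225 (956 nt) on the opposite strand. None of these has a value of its own in the data. CD4SP replicates held 258, 227 and 258 TPM of Dusp1, and CD8SP replicates held 84.2, 85.4 and 74.0 TPM. Every CD4SP library was thus far above every CD8SP library. The fold change was 1.60 on the log2 scale (limma, SE 0.120, adjusted p = 0.000101), with a 95% interval from 1.32 to 1.87 and a ratio of mean levels of 3.05.

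Dusp2, known as PAC-1, a nuclear phosphatase of ERK and p38 that is abundant in lymphoid cells, had its higher values in the CD8SP libraries but was not called. It lies at chr2:127336159-127338376 on the plus strand. CD4SP libraries held 429, 401 and 423 TPM, and CD8SP libraries held 462, 480 and 473 TPM. All CD8SP libraries lay above all CD4SP libraries, as they did for 6.61% of tested genes, but the distance was small, 1.13 times in mean level. Its log2 fold change was -0.17 (limma, SE 0.0959, adjusted p = 0.220), with a 95% interval from -0.39 to 0.044. After median-of-ratios rescaling it was -0.48 (limma, adjusted p = 0.0145) and after quantile normalization -0.31 (limma, adjusted p = 0.0453), in both cases under 2-fold.

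Dusp4, a nuclear phosphatase of ERK and JNK, and Dusp5, a nuclear phosphatase selective for ERK, were the least abundant of the 10 genes. Dusp4 lies at chr8:34807297-34819894 and Dusp5 at chr19:53529109-53542431, both on the plus strand. For Dusp4 the CD4SP values were 4.77, 4.15 and 4.50 TPM, and the CD8SP values were 0.759, 1.01 and 0.445 TPM. Its CD4SP libraries were close to one another and all above 4 times the highest CD8SP value. The log2 fold change of Dusp4 was 1.67 (limma, SE 0.256, adjusted p = 0.00339).

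For Dusp5 the CD4SP values were 3.41, 3.99 and 3.23 TPM. CD8SP replicates 1 and 3 listed it at 0, and replicate 2 listed it at 1.25 TPM. Even that library was below the lowest CD4SP library. The log2 fold change of Dusp5 was 1.79 (limma, SE 0.368, adjusted p = 0.0117). At such low levels the size of a fold change follows the pseudocount: with 0.1 in place of 1 the values were 2.51 for Dusp4 and 3.93 for Dusp5, and both were still called. Annotation places an antisense transcript, AC137853.2, over Dusp5, and reads of that pair cannot be told apart here either.

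Dusp6, a cytoplasmic phosphatase selective for ERK whose expression ERK itself drives, lies at chr10:99263231-99267489 on the plus strand. CD4SP cells had 18.1, 14.2 and 24.6 TPM, while CD8SP cells had 13.9, 14.7 and 14.0 TPM. CD4SP replicates 1 and 3 were above all CD8SP libraries, while replicate 2 lay among them. Its log2 fold change of 0.36 was uncertain, with a 95% interval from -0.13 to 0.86 (limma, adjusted p = 0.254). Without CD4SP replicate 2 it was 0.54 (limma, adjusted p = 0.0524), still not called. The nuclear phosphatases Dusp1, Dusp4 and Dusp5 were therefore called, and the nuclear Dusp2 and the cytoplasmic Dusp6 were not. A difference between these fold changes was not tested.

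**Figure D2:**
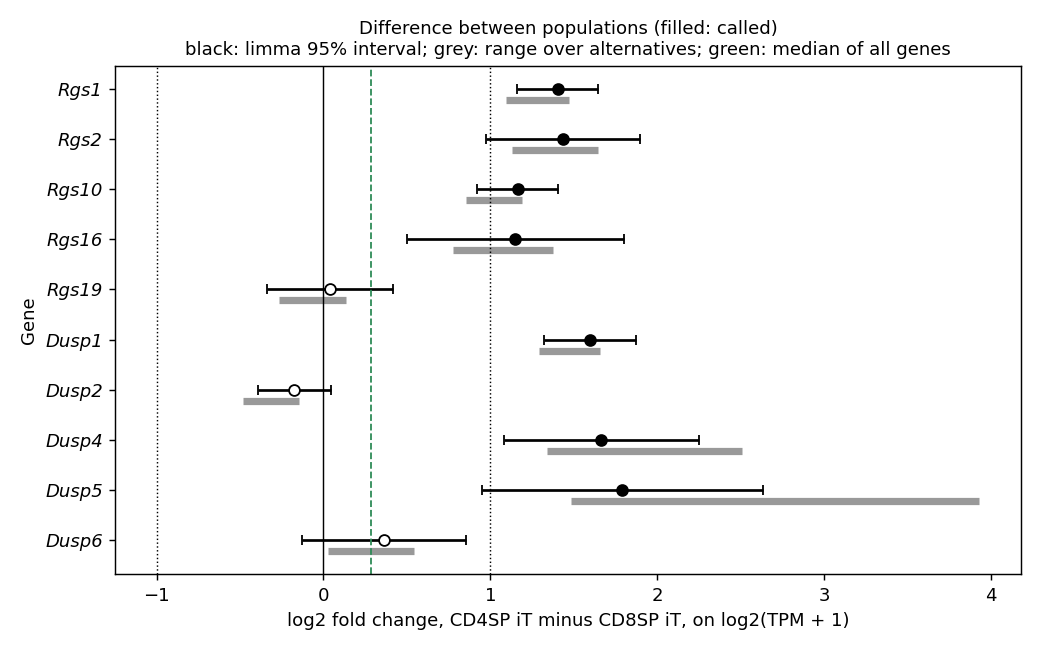
Log2 fold change of each gene on the log2(TPM + 1) scale, CD4SP minus CD8SP. Circles with black bars are the limma estimate and its 95% interval (filled where called), grey bars span the values over the alternative settings, dotted lines mark 2-fold and the green line marks the median of all genes at 0.28. The intervals of the 7 called genes lie above 0, those of Rgs19, Dusp2 and Dusp6 include it, and the grey bar is widest for Dusp5, reaching 3.93.

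The sequences just upstream of the start sites are shown for Dusp1, Dusp5 and Rgs2, because they were the windows that held one of the response elements searched for, and for Dusp2 as a window without one. RefSeq promoter windows (GRCm38.p6) matched 8 of the 10 genes, Rgs1 and Dusp4 being the exceptions. The start sites used here are those of RefSeq, which can differ from the ends of the GENCODE spans given above. The Dusp1 window lies wholly inside its longer GENCODE span. The 250 bases before each start were searched on both strands for 7 motifs. These were the cAMP response element TGACGTCA, its core TGACG (which it contains), the AP-1 site TGANTCA, the CArG box bound by serum response factor, the NF-kB site, TATAAA and the GC box GGGCGG. In the sequences below, read 5′ to 3′ on the gene's own strand, capitals mark the core TGACG (or CGTCA, the same site on the other strand), the full cAMP response element and the CArG boxes.
Dusp1, chr17:26508473-26508722, minus strand: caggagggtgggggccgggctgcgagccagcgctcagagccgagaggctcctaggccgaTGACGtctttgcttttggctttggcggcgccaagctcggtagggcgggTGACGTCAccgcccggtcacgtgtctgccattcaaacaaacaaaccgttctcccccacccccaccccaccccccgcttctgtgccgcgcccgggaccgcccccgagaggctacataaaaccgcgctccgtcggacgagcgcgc
Dusp5, chr19:53528895-53529144, plus strand: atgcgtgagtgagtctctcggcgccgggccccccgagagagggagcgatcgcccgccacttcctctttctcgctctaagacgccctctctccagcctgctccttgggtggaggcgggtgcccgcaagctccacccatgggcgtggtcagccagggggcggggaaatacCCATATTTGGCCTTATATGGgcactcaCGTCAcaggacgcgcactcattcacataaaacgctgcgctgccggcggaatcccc
Rgs2, chr1:144004150-144004399, minus strand: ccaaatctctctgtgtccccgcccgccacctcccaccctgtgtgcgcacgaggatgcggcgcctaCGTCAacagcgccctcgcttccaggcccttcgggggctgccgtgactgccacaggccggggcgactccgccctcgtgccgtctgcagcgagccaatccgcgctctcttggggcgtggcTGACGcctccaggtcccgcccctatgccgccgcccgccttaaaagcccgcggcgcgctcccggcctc
Dusp2, chr2:127335909-127336158, plus strand: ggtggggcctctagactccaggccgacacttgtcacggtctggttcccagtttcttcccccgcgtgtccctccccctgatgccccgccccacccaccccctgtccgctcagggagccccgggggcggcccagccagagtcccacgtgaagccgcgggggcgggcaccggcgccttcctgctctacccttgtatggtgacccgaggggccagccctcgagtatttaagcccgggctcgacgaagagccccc

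Dusp1 held the full palindrome TGACGTCA, whose first base is 143 bases before the start, and 1 further TGACG 191 bases before it. The full element was present in 1.55% of the 32841 windows in the table. Dusp5 held a pair of adjacent CArG boxes, CCATATTTGG and CCTTATATGG, 82 and 72 bases before the start, together with a CGTCA 55 bases before it. One or more CArG boxes were present in 1.47% of windows and 2 or more in 0.0183%. Rgs2 held the core element on each strand, 185 and 67 bases before the start. The core was present in 17.8% of all windows and 2 or more copies in 3.9%. The window of Dusp2 held neither core nor CArG box, but 3 GC boxes, a motif present in 32.7% of windows. Rgs10 and Rgs16, which were called, and Rgs19, which was not, likewise held GC boxes and neither of the other elements, and Dusp6 held none of the 7 motifs. No window of the 8 genes held the letters of the AP-1 site, the NF-kB site or TATAAA. These matches describe letters in a window; binding of a factor was not measured.

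The order of levels differed between populations in where Dusp2 and Dusp1 stood. In CD4SP cells the mean levels ran from Rgs1 (841 TPM) through Rgs10 (564 TPM), Dusp2 (418 TPM), Dusp1 (248 TPM), Rgs19 (218 TPM) and Rgs2 (93.1 TPM) down to Dusp6 (19.0 TPM), Rgs16 (8.0 TPM), Dusp4 (4.47 TPM) and Dusp5 (3.55 TPM). Of these neighbours, only Dusp1 and Rgs19 had overlapping libraries. In CD8SP cells Dusp2 led at 471 TPM, above Rgs1 (318 TPM), Rgs10 (252 TPM) and Rgs19 (209 TPM), followed by Dusp1 (81.2 TPM). The last 5 places were taken by Rgs2, Dusp6, Rgs16, Dusp4 and Dusp5 in the same order as in CD4SP cells, and there Dusp4 and Dusp5 overlapped. Rgs1, Rgs10, Dusp2 and Rgs19 ranked above the 93.8 percentile or at it among tested genes in both populations, so both expressed these regulators strongly. Dusp1 moved from the 94.6 percentile in CD4SP to the 85.5 percentile in CD8SP cells, and Rgs2 from the 85.0 to the 68.5.

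Ratios within a library do not depend on how the library was scaled. The Dusp1 to Dusp2 ratio was 0.602, 0.565 and 0.610 in CD4SP and 0.182, 0.178 and 0.157 in CD8SP libraries. The Rgs1 to Rgs19 ratio was 3.14, 4.47 and 4.32 in CD4SP and 1.36, 1.41 and 1.85 in CD8SP libraries. Both ratios were higher in every CD4SP library, and since the pairs were picked after their values were seen, they are given without a test. The ratio of Rgs2 to Rgs1 overlapped between populations, at 0.111 ± 0.0267 and 0.106 ± 0.0225 (SD, n = 3 each), as these 2 genes differed by like amounts.

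The RGS family had 20 genes in the table, of which 8 were listed at 0 in every library and 10 reached 1 TPM in at least 3 libraries. Its summed level was 1854 ± 88.1 TPM in CD4SP and 906 ± 26.7 TPM in CD8SP libraries (SD, n = 3 each). Rgs1 supplied 45.4% ± 1.17 of it in CD4SP and 35.2% ± 3.89 in CD8SP libraries. Rgs10 supplied 30.5% ± 2.18 and 27.7% ± 1.35, and the share of Rgs19 was 11.7% ± 2.07 against 23.0% ± 1.39. The 15 genes outside the 5 described together made up 6.94% ± 1.16 and 10.05% ± 0.707. In both populations, then, Rgs1 and Rgs10 gave most of the RGS transcript, and the gene whose own level overlapped, Rgs19, took a larger share of the smaller CD8SP total.

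The DUSP family had 24 genes in the table, 6 of them at 0 throughout and 16 at 1 TPM or more in at least 3 libraries. Its summed level was 875 ± 39.7 TPM in CD4SP and 694 ± 16.8 TPM in CD8SP libraries (SD, n = 3 each). Dusp2 supplied 47.7% ± 0.702 of it in CD4SP and 67.9% ± 1.76 in CD8SP libraries, while Dusp1 supplied 28.3% ± 0.813 and 11.7% ± 0.653. Dusp4, Dusp5 and Dusp6 each supplied under 3% in every library. DUSP transcript was therefore mainly Dusp2 in CD8SP cells and mainly Dusp2 with Dusp1 in CD4SP cells.

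**Figure D3:**
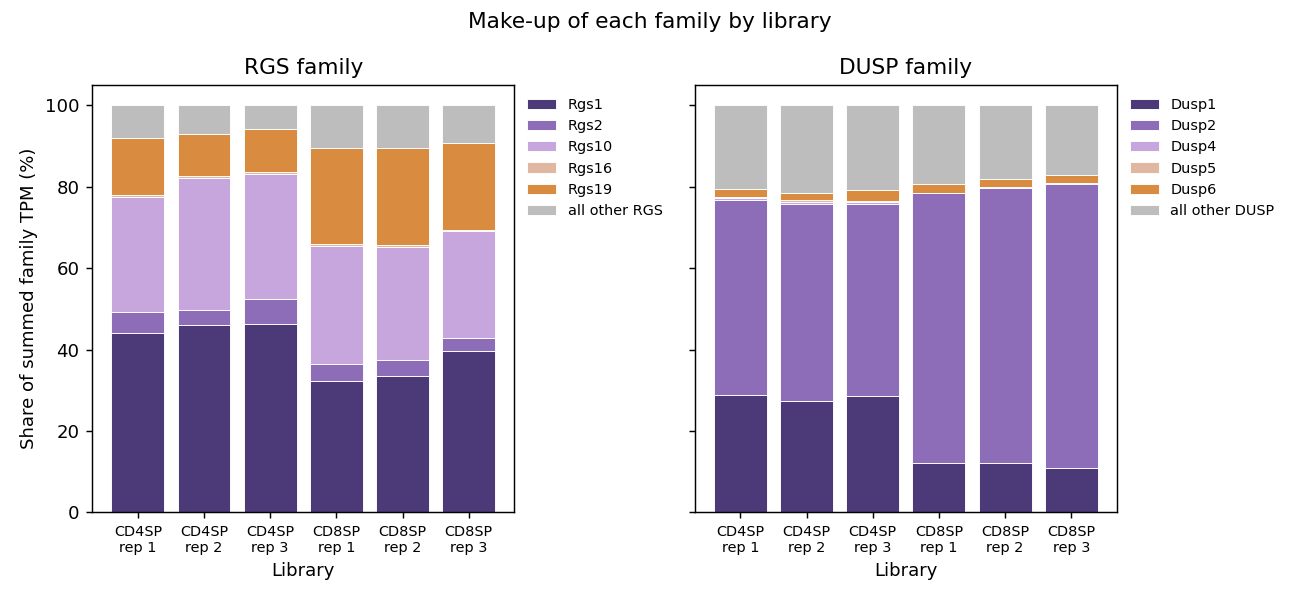
Share of each gene in the summed TPM of its family (vertical axis, %) in each library (horizontal axis), RGS on the left and DUSP on the right. Rgs19 widens from 11.7% on average in CD4SP to 23.0% in CD8SP libraries, and Dusp2 from 47.7% to 67.9%, while Rgs1 and Dusp1 narrow.

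Of the other RGS genes, 5 of the 15 in the table were tested. Rgs9, best known from phototransduction and the striatum, was called higher in CD4SP cells, at 1.79, 3.39 and 4.19 TPM against 0.0759, 0 and 0.140 TPM. Its log2 fold change was 1.90 (limma, adjusted p = 0.00501). Like Dusp4 and Dusp5, it reached 1 TPM through the CD4SP libraries, which built in the direction, and without any 1 of them it was no longer tested. Rgs14, which also holds a Ras-binding domain, and Rgs11 had adjusted p-values under 0.05 below the 2-fold limit, in opposite directions. Rgs14 was at 94.9 ± 28.5 TPM against 54.6 ± 5.0 TPM (log2 fold change 0.75, limma, adjusted p = 0.0443), and Rgs11 at 9.35 ± 1.84 TPM against 17.5 ± 1.33 TPM (log2 fold change -0.85, limma, adjusted p = 0.0196; SD, n = 3 each). Rgs11 was called after median-of-ratios rescaling, quantile normalization or removal of ribosomal protein genes. Rgs3 had overlapping groups at 17.3 and 16.3 TPM. The median log2 fold change of the 5 was 0.70, beside 0.28 over all genes and 1.16 over the 5 RGS genes described.

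Of the other DUSP genes, 11 of 19 were tested, and 2 of them were called, both higher in CD4SP cells. Dusp14, a phosphatase of the adaptor TAB1 in T cell receptor signalling, had CD4SP values of 24.1, 8.81 and 15.7 TPM and CD8SP values of 4.53, 5.97 and 5.05 TPM (limma, log2 fold change 1.38, adjusted p = 0.0217). Dusp3, an atypical phosphatase of ERK and JNK, stood at 1.89 ± 0.644 TPM against 0.305 ± 0.368 TPM (SD, n = 3 each; log2 fold change 1.16, limma, adjusted p = 0.0424). Neither call held throughout. Dusp14 lost it, with adjusted p-values (limma) between 0.0523 and 0.0703, without CD4SP replicate 1, CD4SP replicate 3, CD8SP replicate 1 or CD8SP replicate 3 and with CD8SP replicates 1 and 2 averaged. Dusp3 reached 1 TPM only in CD4SP libraries, so its direction was built in, and its call was lost under every alternative other than no filter and adjusted p alone. Dusp11 and Dusp22 had adjusted p-values of 0.0249 and 0.0378 (limma) with log2 fold changes of 0.55 and 0.62. Dusp12 had overlapping groups. The median over the 11 was 0.52.

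**Figure D4:**
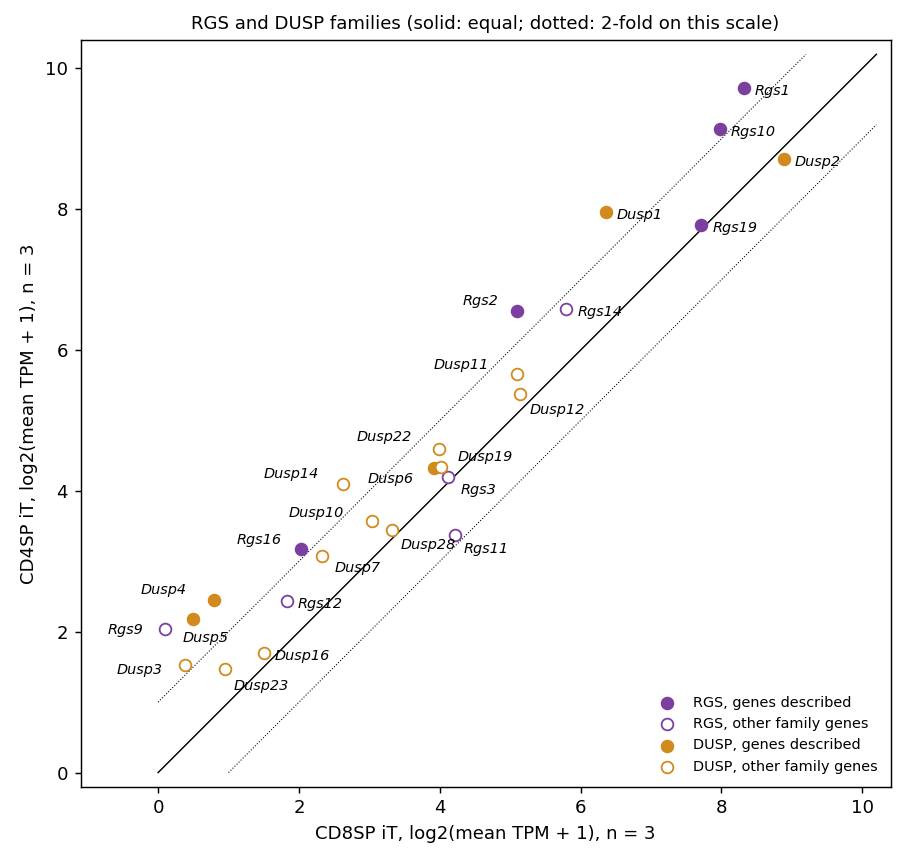
Mean level of the RGS and DUSP genes in CD8SP (horizontal axis) and CD4SP cells (vertical axis), both as log2(mean TPM + 1) of 3 libraries, with filled circles for the genes described and open circles for the rest of each family whose means sum to over 1 TPM. Rgs19 lies near the solid line of equal levels, and Dusp2 and Rgs11 lie below it. Rgs1, Rgs2, Rgs10, Rgs16, Dusp1, Dusp4 and Dusp5 lie above the dotted line of 2-fold, as do Rgs9, Dusp14 and Dusp3 among the open circles.

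Upstream of the RGS proteins, 15 of 16 chemokine and lipid receptors that couple to Gi were tested, with 4 called in favour of CD4SP cells: Ccr8, Ccr6, Ccr4 and Ccr2. Ccr8 stood at 40.9 ± 4.54 TPM against 0.986 ± 0.177 TPM (SD, n = 3 each; log2 fold change 4.40, limma, adjusted p = 6.43e-06), and Ccr6 and Ccr4 had log2 fold changes of 3.99 and 3.78 (limma, adjusted p = 0.000667 and 4.78e-05). The most abundant receptors, Cxcr6, Cxcr3 and Ccr7, were not called. Cxcr6 had all CD4SP libraries above all CD8SP libraries, at 584 against 431 TPM (log2 fold change 0.42, limma, adjusted p = 0.0689), and Cxcr3 and Ccr7 overlapped, with log2 fold changes of 0.046 and -0.30. Ccr4 reached 1 TPM only in CD4SP libraries, and Ccr2 fell under 2-fold, to between 0.79 and 0.94, after median-of-ratios rescaling, quantile normalization or removal of ribosomal protein genes.

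Of 23 G protein subunit genes 16 were tested, and 3 were called, each higher in CD4SP cells. Gna15, the haematopoietic alpha subunit of the Gq class, had CD4SP values of 106, 90.0 and 108 TPM and CD8SP values of 39.6, 36.5 and 27.3 TPM (limma, log2 fold change 1.54, adjusted p = 0.000712). Gnb4 and Gng12, a beta and a gamma subunit, had log2 fold changes of 1.77 and 1.59 (limma, adjusted p = 0.00471 and 0.00692). Gng12 reached 1 TPM only in CD4SP libraries, which built in its direction. Gnas, Gng5 and Gnb2, the most abundant of the list, had overlapping groups.

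On the kinase side, 1 of 19 tested genes of the MAP kinase cascade was called. This was Map2k3, the kinase that activates p38, at 120 ± 9.74 TPM in CD4SP and 49.2 ± 7.39 TPM in CD8SP libraries (SD, n = 3 each; log2 fold change 1.28, limma, adjusted p = 0.00101). After median-of-ratios rescaling it was 0.97, just under 2-fold. Map2k2 and Araf, of the ERK branch, were not called, with log2 fold changes of 0.22 and 0.31. Among 9 tested genes that feed into Ras, Rasgrp1, the exchange factor that couples the T cell receptor to Ras, was the only one called (log2 fold change 1.03, limma, adjusted p = 0.00378). It lay close to the 2-fold limit and fell under it, to between 0.73 and 0.98, after median-of-ratios rescaling, quantile normalization or removal of ribosomal protein genes and without CD4SP replicate 1, CD4SP replicate 3 or CD8SP replicate 3. Lat and Rasal3, the other abundant genes of that list, had log2 fold changes of 0.39 and 0.14. Both tested members of the Sprouty and Spred family, which restrain Ras and ERK signals, were called, in opposite directions. The CD4SP values of Spry1 were 4.63, 2.87 and 6.49 TPM and its CD8SP values were 0.205, 0.265 and 0 TPM. The CD4SP values of Spry2 were 1.03, 0.320 and 1.78 TPM and its CD8SP values were 6.07, 5.77 and 8.10 TPM. Their log2 fold changes were 2.25 and -1.96 (limma, adjusted p = 0.00239 and 0.00458). Spry1 reached 1 TPM only in CD4SP libraries, so its direction was built in and it was no longer tested without any 1 of them.

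Immediate-early genes, which like Dusp1 and Dusp2 are transcribed within minutes of a stimulus, had the highest median of the pathway lists, 0.93. Of 16 tested, 6 were called higher in CD4SP cells (Egr2, Nr4a1, Egr1, Atf3, Fos and Junb) and 0 higher in CD8SP cells, where 0 also had an unadjusted limma p under 0.05. Egr2, Nr4a1 and Egr1 had log2 fold changes of 2.38, 2.26 and 1.58 (limma, adjusted p = 0.0104, 0.000154 and 0.000581). Junb stood at 349 ± 45.5 TPM against 161 ± 27.4 TPM (SD, n = 3 each; log2 fold change 1.12, limma, adjusted p = 0.0024). Zfp36 and Ier2 were not called, at 0.98 and 0.48. Atf3 reached 1 TPM only in CD4SP libraries, Egr2 lost its call with a pseudocount of 0.1 (limma, adjusted p = 0.0611), and Junb fell under 2-fold, to between 0.81 and 0.98, after the 2 rescalings, after removal of ribosomal protein genes and without CD8SP replicate 3. Atf3 was also lost under several alternatives.

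**Figure D5:**
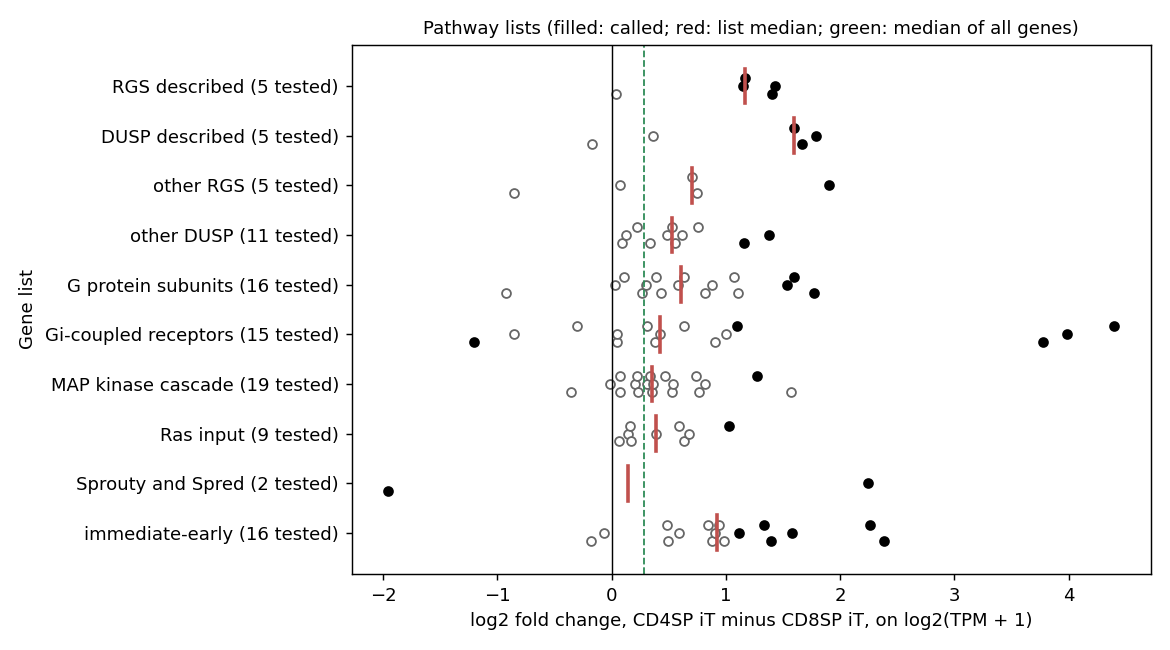
Log2 fold change on the log2(TPM + 1) scale (horizontal axis, CD4SP minus CD8SP) of each tested gene of the lists (vertical axis). Circles are genes, filled where called, red bars are list medians and the green line is the median of all genes at 0.28. The immediate-early genes have a median of 0.93, and the receptor list reaches 4.40 with Ccr8.

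The genes whose log2 values were most like each member's over the 6 libraries were read off by Pearson r among 6728 tested genes with a mean of at least 10 TPM, as a description, since all share the same libraries and the same split in 2 populations. For Dusp1 they were Ikzf2 and Tspan32 (both r = 0.999), for Dusp4 Gadd45b (r = 0.9996) and Tnfrsf25 (r = 0.998), and for Rgs10 Bmyc (r = 0.999) and Folr4 (r = 0.999). Rgs1 was nearest to Rnf113a2 and Ccng2, Rgs2 to Ski, Rgs16 to Tada1 and Letm2, and Dusp5 to Zcchc8 and Fis1, with r between 0.993 and 0.999. Dusp2 was nearest to the ribosomal protein gene Rpl7 (r = 0.994) and to Rgs11 (r = 0.993). Rgs19 was nearest to Chpf2 and Gtf2e1 and Dusp6 to Ythdf1 and Gpbp1, with r between 0.990 and 0.992. Among the members themselves, Dusp1 and Dusp4 were the most alike (r = 0.995), and Dusp2 ran against Rgs16 (r = -0.955).

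The labels were checked against T cell genes. Cd4 stood at 279 to 331 TPM in CD4SP and at 0 to 0.104 TPM in CD8SP libraries, Cd8a at 0.319 to 2.93 TPM and at 1038 to 1161 TPM, and Cd3e at 34.6 to 67.5 TPM in all 6. Of 9 T cell markers, 3 were called: Cd4, which was higher in CD4SP cells, and Cd8a and Cd8b1, which were lower in them. Regulatory T cell markers moved with the 7 called genes: 9 of 10 were called higher in CD4SP cells, with summed levels of 3808 to 4172 TPM against 582 to 676 TPM. Of the 9, Gpr83 was at 0 in every CD8SP library and reached 1 TPM only in CD4SP libraries. Its direction was thus built in, and without any 1 of the CD4SP libraries it was no longer tested. Foxp3, the factor that defines regulatory T cells, was the 1 not called, with CD4SP values of 142, 6.56 and 167 TPM and CD8SP values of 7.48, 7.48 and 10.05 TPM. In CD4SP replicate 2 Foxp3 was the lowest of the 6 libraries, while the 9 called markers stayed above every CD8SP library. Rgs2 (67.8 TPM), Rgs19 (188 TPM), Dusp1 (227 TPM), Dusp2 (401 TPM), Dusp4 (4.15 TPM) and Dusp6 (14.2 TPM) had their lowest CD4SP value there. Rgs10, Rgs16 and Dusp5 had their highest there, and Rgs1 its middle one. Ribosomal protein transcripts took 29.8% of TPM in that library, beside 24.9% and 25.2% in the other CD4SP libraries. The share of all tested genes with their lowest CD4SP value there was not counted. Without that library 6 of the 10 genes were called, Rgs16 being lost. The part of regulatory cells in the differences was not tested.

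Each set of markers of other cell types summed to less than Rgs10 alone, but single markers exceeded the lower of the 10 genes. In CD8SP cells the NK marker Klre1 had a mean of 42.1 TPM, beside 33.3 TPM for Rgs2. In CD4SP cells the myeloid marker Lyz2 had a mean of 22.1 TPM, beside 19.0 TPM for Dusp6. Myeloid markers summed to 17.1 to 34.2 TPM in CD4SP and 5.28 to 13.9 TPM in CD8SP libraries, with 2 of 10 tested, Lyz2 called higher in CD4SP cells, and S100a8, S100a9, Mpo and Elane at 0 throughout. B cell markers summed to 19.3 to 27.9 TPM and 29.2 to 31.6 TPM, with 5 of 7 tested, Cd22 called higher in CD8SP cells (not so without CD4SP replicate 1, CD4SP replicate 3 or CD8SP replicate 3), and Pax5 and Ms4a1 at 0. NK markers summed to 4.45 to 10.6 TPM and 44.7 to 52.1 TPM, with both tested markers, Klre1 and Klrb1c, called higher in CD8SP cells and Ncr1 at 0. Erythroid markers summed to at most 1.11 TPM. Of 9 heat shock genes, which can mark handling stress, 7 were tested and none was called, with a median log2 fold change of -0.16. Under the 2-fold limit, Hspe1 was lower in CD4SP cells (log2 fold change -0.66, limma, adjusted p = 0.00869) and Dnajb1 higher (0.48, adjusted p = 0.0375), and no further gene of the list had an unadjusted p under 0.05. The part of these markers in the differences of Rgs and Dusp genes was not tested.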

How the data were processed

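Polyadenylated RNA of 1000 sorted cells per library was sequenced. cDNA was amplified by PCR with a whole-transcriptome kit and tagmented with a transposase kit. Per the submitters' processing notes, reads were handled with bcl2fastq, HISAT2 (mm10), SAMtools and StringTie, and the authors deposited the values as TPM, 1 column per library. TPM keep no depth, so the depth is unknown and no counting interval could be given; use of strand and removal of duplicates are not given in the sources used here. An exact 0 may be a failed estimate.

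The study's own test was a count model, which TPM cannot enter. The values were therefore analysed as log2(TPM + 1), which understates the change of low genes, with limma 3.58.1 in R 4.3.3 (population as the only term, mean-variance trend, Benjamini-Hochberg adjustment over 10476 genes). The table held 23420 rows, of which 9818 were at 0 in all libraries and 27 had names turned into dates; these last are not named. Libraries summed to 997896 to 998100 TPM and listed 10329 to 10649 genes at 1 TPM or more in CD4SP and 9971 to 10149 in CD8SP cells. CD8SP replicates 1 and 2 were the most alike libraries (r = 0.987), so they were also averaged as 1 sample. The script was tested on simulated data.

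Members and gene lists were chosen with earlier results of these data known. Named genes were the 10 members; of each list, the up to 3 called genes of largest change per direction and the 3 of highest mean; the 2 genes most like each member; and Cd3e, Cd4, Cd8a and Foxp3. Some genes that this rule names are not reported here. Fos, Atf3, Ccr2, Dnajb1 and the markers given at 0 other than Ncr1 were added after their values were seen. Alternatives were quantile normalization, median-of-ratios rescaling, filters of 5 TPM or none, a pseudocount of 0.1, removal of ribosomal protein genes, the replicate number as a block, adjusted p alone, that averaging, and leaving out each library. Positions are 1-based, from GENCODE M21 on GRCm38 (the assembly of mm10). A search with blastn 2.17.0 for transcripts that match a member at 95% identity over 200 nt found the antisense transcripts that overlap Rgs16 and Dusp5 (Gm28513 and AC137853.2) and no others.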

Additional observations from a re-analysis of the deposited data

How the results depend on the processing

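Of the 10 genes, 7 were called higher in CD4SP cells in most settings. The number was 5 with a filter of 5 TPM, under which Dusp4 and Dusp5 were not tested and have no value, 6 after quantile normalization, 5 after median-of-ratios rescaling, and 6 or 7 when single libraries were left out. None was called higher in CD8SP cells under any setting. Rgs10 was 0.86 after median-of-ratios rescaling, and Rgs16 was 0.90 there, 0.78 after quantile normalization and 0.95 to 1.35 when single libraries were left out. Rgs19 turned to -0.16 after quantile normalization, -0.27 after median-of-ratios rescaling and -0.13 without ribosomal protein genes, and ranged from -0.14 to 0.13 when single libraries were left out. The cause was not tested. Median-of-ratios rescaling and quantile normalization moved the median of all genes from 0.28 to 0.00017 and -0.015. Whether same-numbered libraries came from the same mouse is not known. The correlation of same-numbered deviations was between -0.017 and 0.089, and that of different-numbered ones between -0.087 and 0.067. With 3 libraries in each group these values cannot decide it. With the replicate block 7 genes were called, with adjusted p from 0.000599 (Dusp1) to 0.0430 (Rgs16).

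The pathway lists held 19 called genes in favour of CD4SP and 2 in favour of CD8SP cells. Over all tested genes, 7.92% and 1.8% were called in these directions. Tested were 5 other RGS, 11 other DUSP, 15 receptor, 16 G protein, 19 MAP kinase, 9 Ras, 2 Sprouty and 16 immediate-early genes. With adjusted p alone the called genes numbered 39 and 4, beside 17.6% and 3.23% of all tested genes. The second number was also 4 after quantile normalization, median-of-ratios rescaling or removal of ribosomal protein genes. Leaving out single libraries gave 12 (without CD4SP replicate 3) to 17 and 1 (without CD4SP replicate 2 or CD8SP replicate 3) to 2. Without any 1 of the CD4SP libraries, Rgs9, Dusp3, Gng12, Ccr4, Spry1 and Atf3 were no longer tested, which lowered the first number. Over all genes, 830 and 189 became 444 and 333 after quantile normalization, 489 and 300 after median-of-ratios rescaling, 1845 and 338 with adjusted p alone, and 566 to 845 and 111 to 203 when single libraries were left out. Averaging CD8SP replicates 1 and 2 gave 116 in the second direction. Depth is unknown, so no detection limit could be set for the lowest genes, Dusp4 and Dusp5.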
